A study of Mus musculus with 13 samples.

Results

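Cyclic nucleotide phosphodiesterases (PDEs) were followed in bulk RNA sequencing of interscapular brown adipose tissue (iBAT). The 10 genes are Pde3a, Pde3b, Pde4a, Pde4b, Pde4c, Pde4d, Pde2a, Pde7a, Pde8a and Pde10a, chosen by name, out of 42416 gene identifiers in the files. All 10 were among the 13360 genes that exceeded 1 CPM in 5 or more libraries, where CPM are counts per M of the library total after scaling. The 13 libraries were labelled as separate samples, 8 as iFAXLKO and 5 as WT. A legend of the study gives the same n for RNA sequencing at its pathway panel, but 5 per group for its heatmap of this comparison. That legend describes the mice as female littermates. Both groups carried loxP sites around Axl, were kept at room temperature on a high-fat diet (HFD) and were given tamoxifen every 3 weeks, so that the WT mice shared the floxed allele, the diet and the drug and differed by the absence of Cre. Per the methods of the study, the Cre is a tamoxifen-inducible CreERT2 driven from an Adipoq bacterial artificial chromosome, which acts in adipocytes, while the libraries were made from whole tissue. Age and strain are not given in the labels of these samples.

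The libraries held 22.44 to 32.6 M counts each, and a count of 0 allows up to 3 counts, or 0.092 to 0.134 CPM, which covers counting error only. Axl, which the Cre is meant to delete, showed no lower level in iFAXLKO: the mean was 33.1 ± 6.16 CPM (SD, n = 8) there and 27.8 ± 3.82 CPM in WT (SD, n = 5), with an adjusted p of 0.699 in edgeR's quasi-likelihood test, so that every direction below refers to the labels. WT replicate 2 stood apart from the other 12 libraries. Its exon length index, the median log2 deviation of genes with at least 5 kb of exon sequence minus that of genes under 2 kb, was −0.61, whereas the others lay between −0.13 and 0.25. Brown adipocyte markers were abundant in every library, summing to between 15647 and 25198 CPM, while skeletal muscle markers ranged 99.1-fold, from 56.8 to 5634 CPM. Macrophage markers had positive log2 fold changes for 8 of 8 genes and fibroblast markers for 8 of 8, with medians of 0.40 and 0.69 and no gene of either list past the adjusted limit. At an unadjusted p under 0.05 in edgeR's test were 7 of the macrophage and 8 of the fibroblast genes, against 7.38% of all genes tested. Smooth muscle and pericyte markers were also higher for 8 of 8 genes and endothelial markers for 7 of 8. Brown adipocyte markers were lower for 7 of 8 and skeletal muscle markers for 11 of 12. The 1 brown adipocyte marker that was higher in iFAXLKO passed the adjusted limit. Over all genes tested 46.4% were above 0.

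PDEs hydrolyse cAMP, cGMP or both and so end the signal that a cyclase starts. In brown adipocytes noradrenaline acts through β-adrenergic receptors and Gs to raise cAMP, and protein kinase A then drives lipolysis and the transcription of Ucp1, so that PDE activity sets how long and where in the cell this signal lasts. PDE3B is the classical enzyme through which insulin, acting over PI3K and AKT, lowers cAMP in fat cells. The PDE4 enzymes are specific for cAMP, PDE7 and PDE8 enzymes are cAMP-specific as well, and PDE2A and PDE10A accept both nucleotides. The study placed PDE3 and PDE4 activity downstream of AXL and AKT, and the comparison here asks whether transcripts of these enzymes differed in iBAT. Transcript counts do not measure enzyme activity.

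No PDE transcript of the 10 passed the test between the groups. In the same fit 17 of 13360 genes, or 0.127%, had an adjusted p under 0.05, and none of the 10 did. At an unadjusted p under 0.05 the counts were 986 genes, or 7.38%, and again none of the 10, and DESeq2, which called 67 genes in all, called none of them either. The point estimates were above 0 for 5 genes and below 0 for 5, with a median log2 fold change of 0.02 against −0.01 over all genes tested. The CPM ranges of the groups overlapped for all 10 genes, whereas 58 genes, or 0.434% of those tested, had ranges that did not overlap. The 95% intervals of all 10 held 0, and none of them reached a doubling or a halving; the intervals of 7 genes lay within 0.5 of 0 on the log2 scale.

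**Figure D1:**
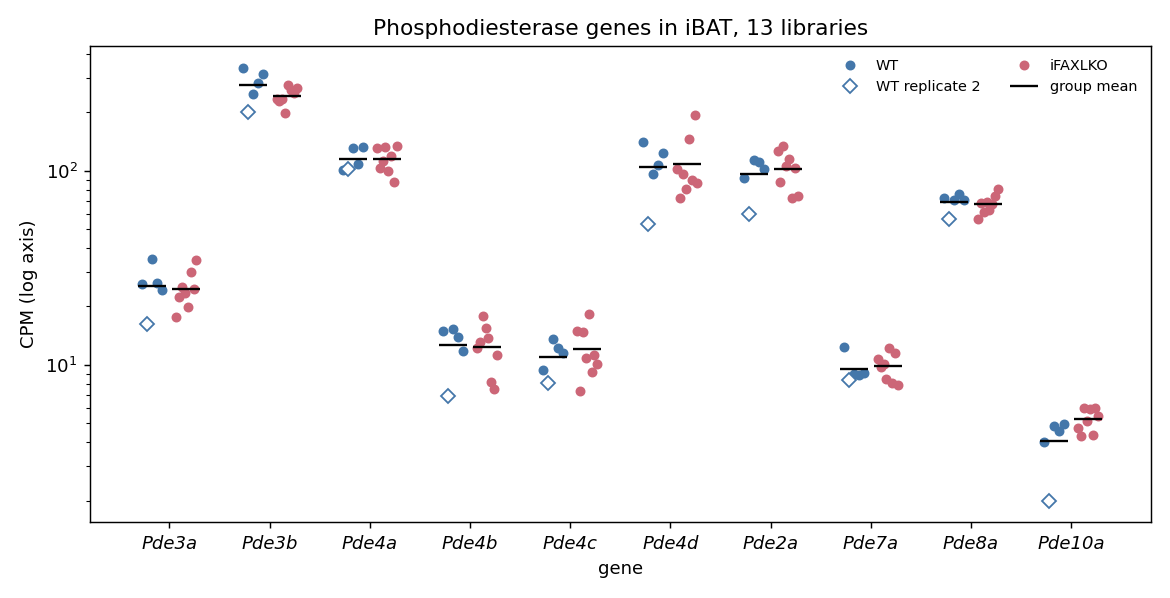
CPM of the 10 phosphodiesterase genes on a log axis in 5 WT (blue) and 8 iFAXLKO (red) libraries; each point is a library, the open diamond is WT replicate 2 and the black lines are group means. The points of both groups overlap for every gene, from Pde3b near 257 CPM to Pde10a near 4.79 CPM, and the open diamond is the lowest point of all 13 for 5 of the 10 genes.

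Levels between genes were compared per kb of exon sequence. Pde3b was the highest of the 10 in all 13 libraries, with 28.2 ± 4.47 CPM per kb (SD, n = 13), and Pde10a was the lowest in all 13, with 0.373 ± 0.0834 CPM per kb. Pde8a at 16.9 ± 1.82, Pde2a at 16.2 ± 3.55 and Pde4a at 15.0 ± 2.09 CPM per kb came next, and their order was not resolved, as each exceeded the following gene in 8 of 13 libraries. Pde4d at 8.91 ± 3.07 CPM per kb was below Pde4a in 12 of 13 libraries. Pde4c at 2.09 ± 0.553 and Pde3a at 1.97 ± 0.448 CPM per kb were not separated from each other, and neither were Pde7a at 1.26 ± 0.20 and Pde4b at 1.18 ± 0.313 CPM per kb, each pair keeping its order in 8 of 13 libraries. Pde3b, Pde8a, Pde2a and Pde4a, 4 genes, together held between 76.5% and 86.7% of the summed CPM per kb of the 10 genes in a library.

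**Figure D2:**
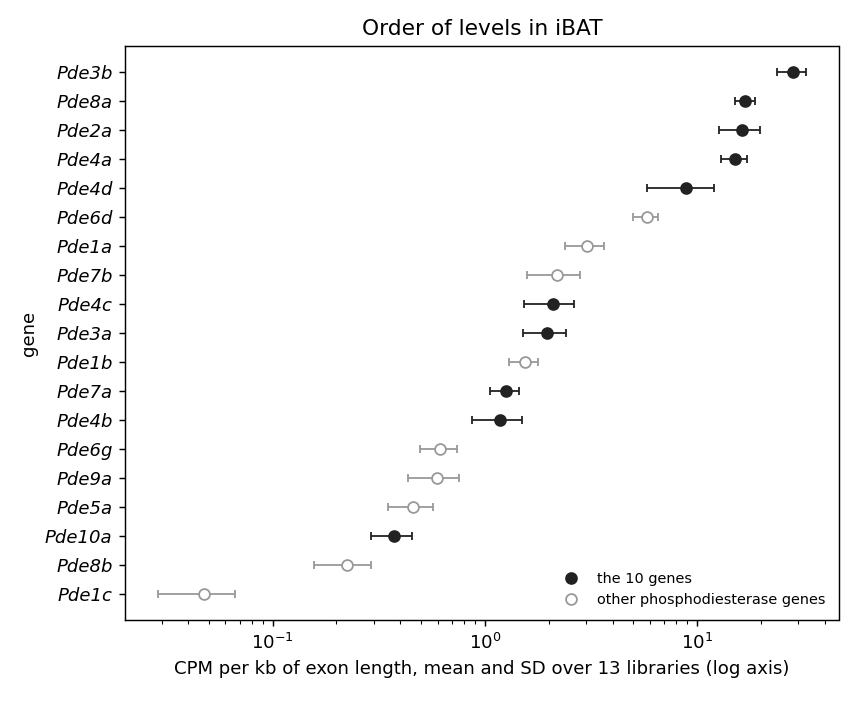
Mean CPM per kb of exon length with SD over 13 libraries, on a log axis, for the 10 genes (filled) and the 9 other phosphodiesterase genes past the filter (open). Pde3b leads at 28.2 CPM per kb, 4 of the 10 genes sit between 8.91 and 16.9, and Pde1c is the lowest at 0.0477.

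The PDE3 genes encode enzymes that hydrolyse cAMP and are inhibited by cGMP. Pde3b (ENSMUSG00000030671, chr7:114415281-114539251 on the plus strand, GRCm38) had 340 CPM in WT 1, 201 in WT 2, 248 in WT 3, 282 in WT 4 and 315 in WT 5. The iFAXLKO libraries had between 198 and 278 CPM with a median of 243, and 1 of 8 lay above the WT mean. The lowest library was thus an iFAXLKO library and the next lowest was WT 2, and the 3 highest libraries were WT. The group means were 244 ± 25.3 CPM (SD, n = 8) and 277 ± 54.8 CPM (SD, n = 5), which gave a log2 fold change of −0.18 with a 95% interval from −0.43 to 0.06 (adjusted p = 0.760). The level in iFAXLKO was thereby estimated at 88.0% of WT, with an interval from 74.1% to 105%. An exact permutation test of the group labels, 2-sided, gave p = 0.205, the smallest value it allows being 0.000777. With 1 library left out the log2 fold change ran from −0.28 without WT 2 (adjusted p = 0.301) to −0.10 without WT 1 (adjusted p = 0.908).

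Pde3a (ENSMUSG00000041741, chr6:141249269-141507448 on the plus strand), the isoform better known from heart and vascular smooth muscle, had 26.1, 16.3, 35.1, 26.3 and 24.3 CPM in WT 1 to WT 5. Its iFAXLKO libraries spanned 17.6 to 34.7 CPM with a median of 24.0, almost the same range. The log2 fold change was −0.06 with an interval from −0.42 to 0.31 (adjusted p = 0.976). Without WT 2 it was −0.18, and without WT 3 it was 0.10. Pde3b exceeded Pde3a between 9.88-fold and 19.5-fold per kb, by 14.3 ± 3.20 in iFAXLKO (SD, n = 8) and 15.7 ± 3.50 in WT (SD, n = 5). Pde3b accordingly held 93.2 ± 1.29% of the PDE3 CPM per kb in iFAXLKO and 93.7 ± 1.69% in WT. Pde3a shares 741 exon bases with Gm28523 on the opposite strand, and as the strand setting of the counting is not stated, reads of both genes there cannot be told apart. Gm28523 had 3.63 ± 0.593 CPM in iFAXLKO and 3.01 ± 0.230 CPM in WT.

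The PDE4 genes encode the cAMP-specific enzymes that rolipram inhibits. Pde4a (ENSMUSG00000032177, chr9:21165714-21213248 on the plus strand) had 101, 102, 131, 109 and 133 CPM in WT 1 to WT 5 and from 87.9 to 134 CPM with a median of 116 in iFAXLKO. The group means were 115 ± 17.2 CPM (SD, n = 8) and 115 ± 15.8 CPM (SD, n = 5), which gave a log2 fold change of 0.00 with an interval from −0.24 to 0.24 (adjusted p = 0.999). This gene was the least affected by WT 2, which stood at 86.1% of the mean of the other WT libraries.

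Pde4d (ENSMUSG00000021699, chr13:108449948-109953461 on the plus strand), a long gene with many alternative promoters, was the most variable of the 10, with a coefficient of variation of 34.5% over 13 libraries. It had 141 CPM in WT 1, 53.3 in WT 2, 96.6 in WT 3, 108 in WT 4 and 123 in WT 5. The iFAXLKO libraries spanned 72.5 to 195 CPM with a median of 92.7; the highest values were 195 in iFAXLKO 7 and 146 in iFAXLKO 5, and the other 6 lay below the WT mean. The log2 fold change was 0.06 with an interval from −0.50 to 0.62 (adjusted p = 0.984), and it was −0.12 without iFAXLKO 7 and −0.11 without WT 2. In iFAXLKO 7 Pde4d exceeded Pde4a per kb, 16.2 against 11.5, the only library where it did.

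Pde4b (ENSMUSG00000028525, chr4:102087543-102607259 on the plus strand), known from immune cells and brain, had 14.9, 6.95, 15.4, 13.9 and 11.8 CPM in WT 1 to WT 5 and from 7.55 to 17.8 CPM with a median of 12.6 in iFAXLKO. The log2 fold change was −0.03 with an interval from −0.48 to 0.43 (adjusted p = 0.990). Pde4c (ENSMUSG00000031842, chr8:70723720-70751186 on the plus strand) had 9.46, 8.08, 13.6, 12.3 and 11.6 CPM in WT 1 to WT 5 and from 7.32 to 18.3 CPM with a median of 11.02 in iFAXLKO. Its log2 fold change was 0.14 with an interval from −0.28 to 0.55 (adjusted p = 0.937), and it was 0.03 without iFAXLKO 5, 0.05 without WT 2 and 0.24 without WT 3. For both genes the iFAXLKO libraries extended above the highest WT library, and for Pde4c also below the lowest. For each of these genes 4 of 8 lay above the WT mean. Among the 4 PDE4 genes, Pde4a and Pde4d together held between 83.9% and 91.0% of the CPM per kb of a library. Pde4a took 55.4 ± 9.59% in iFAXLKO and 56.5 ± 7.37% in WT, and Pde4d 32.5 ± 9.75% and 31.8 ± 7.30%, so that the differences were far smaller than the spread.

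Pde8a (ENSMUSG00000025584, chr7:81213596-81334533 on the plus strand) encodes a cAMP-specific enzyme of high affinity and was the steadiest of the 10, with a coefficient of variation of 10.8%. It had 72.8, 56.5, 70.4, 76.3 and 70.4 CPM in WT 1 to WT 5 and from 56.2 to 80.8 CPM with a median of 67.8 in iFAXLKO. The log2 fold change was −0.04 with the narrowest interval of the 10, from −0.24 to 0.16 (adjusted p = 0.970). Pde7a (ENSMUSG00000069094, chr3:19223108-19311322 on the minus strand), known from T cells and muscle, had 12.4 CPM in WT 1 and 8.39, 8.97, 8.82 and 9.06 CPM in WT 2 to WT 5, while iFAXLKO spanned 7.92 to 12.2 CPM with a median of 9.94. Its log2 fold change was 0.04 with an interval from −0.23 to 0.32 (adjusted p = 0.975), and it was 0.16 without WT 1. WT 1 was also the library with the highest sum of lymphocyte markers, 26.0 CPM against 1.43 to 8.20 CPM in the others. The r of Pde7a with these markers was 0.54 (permutation p = 0.0498, adjusted p = 0.306, n = 13), rho was 0.31 (permutation p = 0.304, adjusted p = 0.715, n = 13), and r was −0.11 without WT 1 and iFAXLKO 3. With skeletal muscle markers the r of Pde7a was 0.56 (permutation p = 0.0463, adjusted p = 0.306, n = 13), rho was 0.59 (permutation p = 0.0367, adjusted p = 0.301, n = 13), and r was 0.52 without WT 5 and iFAXLKO 8.

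Pde2a (ENSMUSG00000110195, chr7:101421691-101512827 on the plus strand) encodes a dual enzyme that cGMP stimulates. It had 92.0, 60.2, 114, 111 and 102 CPM in WT 1 to WT 5 and from 72.3 to 134 CPM with a median of 105 in iFAXLKO. The log2 fold change was 0.10 with an interval from −0.27 to 0.46 (adjusted p = 0.953), and without WT 2 it was −0.03. Pde2a shares 3955 exon bases on the same strand with Gm45837 (ENSMUSG00000030653), whose counts were 1.01 to 1.08 times those of Pde2a in each library. The values of these genes therefore cannot be taken as separate measurements, and the level of Pde2a is uncertain to that extent.

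Pde10a (ENSMUSG00000023868, chr17:8525372-8986648 on the plus strand), a dual enzyme known from the striatum, had the lowest level and the largest point estimate. It had 3.99 CPM in WT 1, 2.00 in WT 2, 4.85 in WT 3, 4.55 in WT 4 and 4.97 in WT 5. The iFAXLKO libraries spanned 4.32 to 6.01 CPM with a median of 5.29, all 8 above the WT mean and 5 of them above the highest WT library. The means were 5.24 ± 0.720 CPM (SD, n = 8) and 4.07 ± 1.22 CPM (SD, n = 5), from counts between 46 and 169 per library. The log2 fold change was 0.36 with an interval from −0.03 to 0.75 (adjusted p = 0.706). The exact permutation test, unadjusted and 1 of 10 such tests, gave p = 0.0311 on the log2 scale and p = 0.0381 for the difference of mean CPM, the only values of the 10 genes under 0.05. Without WT 2 the log2 fold change was 0.19 (adjusted p = 0.559).

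**Figure D3:**
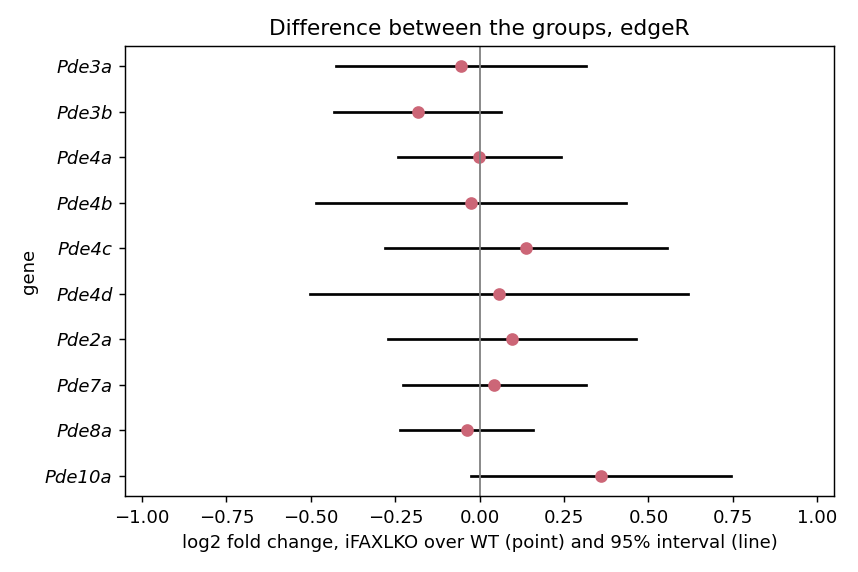
Log2 fold change of iFAXLKO over WT (points) with 95% intervals (lines) from edgeR for the 10 phosphodiesterase genes. All 10 intervals cross 0; Pde3b at −0.18 and Pde10a at 0.36 lie farthest from it, and Pde4d has the widest interval, from −0.50 to 0.62.

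The family total was 702 ± 55.2 CPM in iFAXLKO (SD, n = 8) and 725 ± 122 CPM in WT (SD, n = 5), with WT 2 lowest of all at 515 CPM and WT 1 highest at 813 CPM. Shares of this total do not depend on how the libraries are scaled to each other. Pde3b held 34.8 ± 2.94% of the summed CPM in iFAXLKO, from 30.5% to 38.8%, and 38.2 ± 3.01% in WT, from 33.6% to 41.8%. The PDE3 genes together held 38.4 ± 3.44% and 41.8 ± 2.40%, and the PDE4 genes 35.3 ± 2.30% and 33.5 ± 1.17%. These ranges overlapped between the groups, and no test of a share was made. Pde10a held 0.745 ± 0.0663% in iFAXLKO and 0.552 ± 0.111% in WT, where the lowest iFAXLKO share, 0.652%, lay just under the highest WT share, 0.658%.

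Per kb the make-up was similar, with Pde3b at 29.4 ± 2.62% in iFAXLKO and 32.5 ± 3.02% in WT. Pde8a held 18.4 ± 2.39% and 18.5 ± 1.40%, and Pde2a 18.2 ± 3.70% and 16.5 ± 2.16%. Pde4a held 16.6 ± 2.84% and 16.3 ± 2.64%, and Pde4d 9.80 ± 3.21% and 9.09 ± 1.84%.

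**Figure D4:**
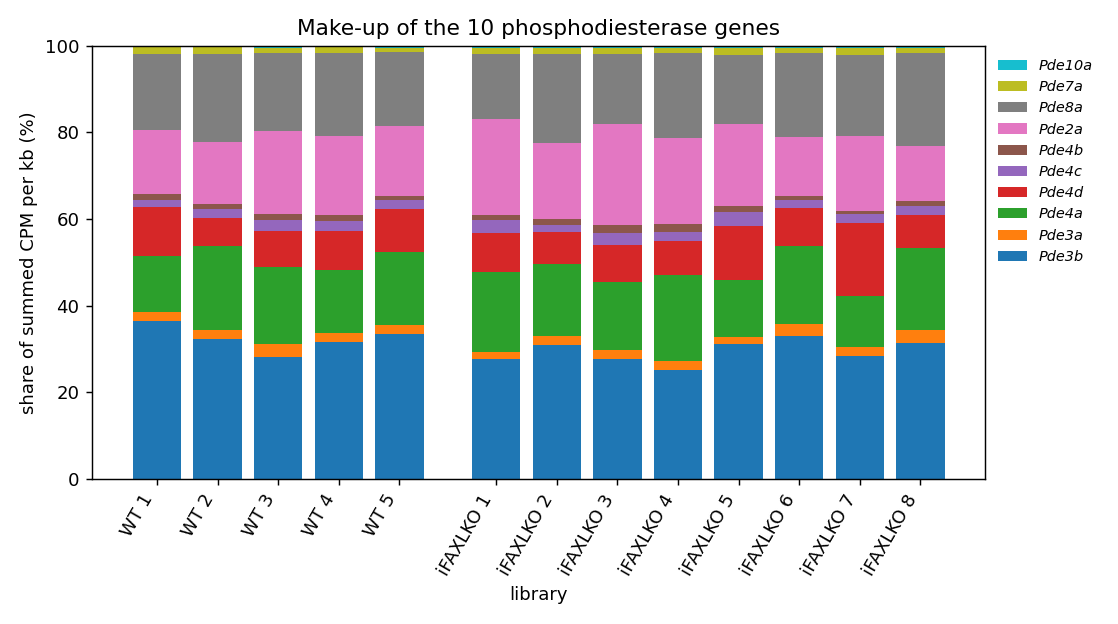
Share of each gene in the summed CPM per kb of the 10 phosphodiesterase genes, 1 stacked bar per library, 5 WT bars on the left and 8 iFAXLKO bars on the right. Pde3b (blue, bottom) is the largest part of every bar, between 25.0% and 36.5%, and Pde4d (red) reaches 16.7% in iFAXLKO 7.

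WT 2 was the lowest of the 13 libraries for Pde3a, Pde4b, Pde4d, Pde2a and Pde10a. How often WT 2 was lowest over all genes tested was not counted. WT 2 stood between 43.5% and 86.1% of the mean of the other WT libraries over the 10 genes, whose exon lengths are 4.04 to 12.8 kb. Over all 13 libraries, with group means subtracted, 5 of the 10 genes correlated with the exon length index at an adjusted p under 0.05 by Pearson's r in permutation tests adjusted over 10 relations, namely Pde3a, Pde3b, Pde4d, Pde8a and Pde10a. By rho Pde3b and Pde8a passed. All of the 10 genes but Pde8a have at least 5 kb of exon sequence and so enter the index itself. The share of all genes tested that would pass was not computed, so the count cannot be called particular to these genes. The highest of the 10 was Pde3b, with r = 0.83 (permutation p = 0.00029, adjusted p = 0.0029, n = 13) and Spearman's rho = 0.79 (permutation p = 0.00166, adjusted p = 0.0141, n = 13). Without WT 1 and WT 2, the libraries farthest from the median of the index, none of these 5 genes passed. For Pde3b r was then 0.62 (adjusted permutation p = 0.111) and for Pde8a 0.65 (adjusted permutation p = 0.0954), against 0.83 and 0.73 with all libraries. For these genes the lost pass, with fewer libraries, does not show that the relation rested on those left out. For Pde3a, Pde4d and Pde10a r fell from 0.62, 0.65 and 0.75 to 0.33, 0.23 and −0.04, so that their relations rested largely on WT 1 and WT 2. For Pde2a and Pde4b r was 0.31 and 0.36 with all libraries and −0.77 and −0.74 without WT 1 and WT 2 (adjusted permutation p = 0.0441 for both). Within the lower range of library numbers r was 0.89 for Pde3b, and within the upper range 0.63, with no adjusted p under 0.05 for any of the 10 genes in either range. After the trend over exon length was removed from each library, the log2 fold changes of Pde3b and Pde10a were −0.18 and 0.38 (adjusted p = 0.531 and 0.442 in edgeR's test).

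**Figure D5:**
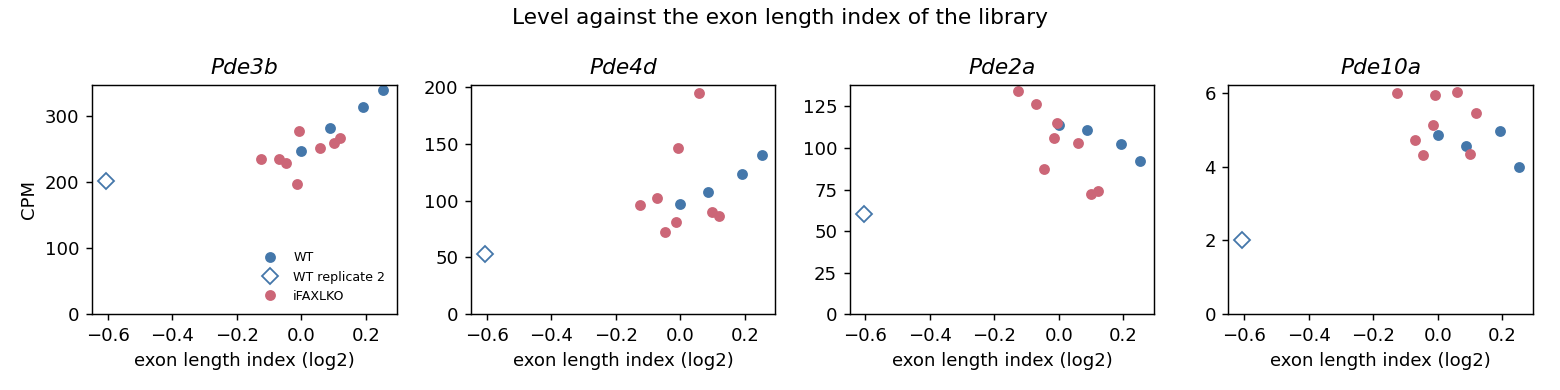
CPM of Pde3b, Pde4d, Pde2a and Pde10a against the exon length index of the library (log2, long genes minus short genes), WT in blue with WT replicate 2 as an open diamond and iFAXLKO in red. WT replicate 2 lies alone at −0.61; without WT 1 and WT 2, r was 0.62 for Pde3b, which did not pass (adjusted permutation p = 0.111), and −0.77 for Pde2a (adjusted permutation p = 0.0441).

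The library numbers in the labels fall into a lower range, with 4 iFAXLKO and 2 WT libraries, and an upper range, with 4 iFAXLKO and 3 WT libraries, which no label calls a batch. The difference of mean log2 CPM, iFAXLKO minus WT, was positive for 7 of the 10 genes in the lower range, which holds WT 2, and for 3 in the upper range. It was 0.59 and −0.28 for Pde2a, 0.50 and −0.46 for Pde4b, 0.23 and −0.19 for Pde4a and 0.39 and −0.08 for Pde4c. Pde3b was below 0 in both, with −0.23 and −0.09, and Pde10a above 0 in both, with 0.81 and 0.17. Signs thus differed between the ranges for 6 genes.

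Because whole tissue was sequenced, a gene's level may follow the share of a cell type, and fewer cells of a type and less RNA per cell cannot be told apart. Of 80 relations between the 10 genes and 8 lists of cell type markers, with group means subtracted, none had an adjusted permutation p under 0.05. The strongest was between Pde4b and endothelial markers, with r = 0.81 (permutation p = 0.0007, adjusted p = 0.0560, n = 13) and rho = 0.81 (permutation p = 0.00119, adjusted p = 0.0796, n = 13). It was 0.83 without iFAXLKO 4 and iFAXLKO 6, and 0.56 and 0.82 within the lower and upper number ranges. With brown adipocyte markers Pde4d had r = −0.74 (permutation p = 0.00398, adjusted p = 0.128, n = 13) and rho = −0.54 (permutation p = 0.0575, adjusted p = 0.324, n = 13), r being 0.11 without WT 2 and iFAXLKO 7 and −0.73 and −0.61 within the ranges. Pde8a had r = −0.73 with them (permutation p = 0.00491, adjusted p = 0.128, n = 13) and rho = −0.77 (permutation p = 0.00312, adjusted p = 0.0832, n = 13), r being −0.49 without the same libraries and −0.82 and −0.27 within the ranges. Pde2a with endothelial markers had r = 0.71 (permutation p = 0.00638, adjusted p = 0.128, n = 13) and rho = 0.79 (permutation p = 0.00199, adjusted p = 0.0796, n = 13), r being 0.82 without iFAXLKO 4 and iFAXLKO 6 and 0.37 and 0.68 within the ranges. The summed endothelial markers ranged from 801 to 1252 CPM in iFAXLKO and from 732 CPM, in WT 2, to 1001 CPM in WT. Fibroblast and macrophage markers, which had positive log2 fold changes, were most related to Pde4a, with r = −0.57 (permutation p = 0.0422, adjusted p = 0.306, n = 13) and rho = −0.64 (permutation p = 0.0216, adjusted p = 0.288, n = 13) for fibroblast markers and r = −0.63 (permutation p = 0.0221, adjusted p = 0.253, n = 13) and rho = −0.61 (permutation p = 0.0303, adjusted p = 0.301, n = 13) for macrophage markers. These r were −0.47 without iFAXLKO 2 and WT 5 and −0.34 without iFAXLKO 7 and WT 5, and within the lower and upper ranges −0.38 and −0.93 for fibroblast and −0.43 and −0.90 for macrophage markers. With fibroblast markers the r of Pde3b was −0.30 and that of Pde10a −0.09.

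Among the genes themselves, 45 pairs were compared over 13 libraries with group means subtracted. By r 7 pairs had an adjusted permutation p under 0.05, and 1 of them, Pde4c with Pde2a, also by rho (r = 0.80 with adjusted permutation p = 0.0461, rho = 0.90 with adjusted permutation p = 0.0036, n = 13). Without WT 2 r was 0.78 for that pair, 0.71 for Pde4d with Pde7a and 0.66 for Pde3a with Pde8a. It was 0.54 for Pde3b with Pde4d, 0.53 for Pde4b with Pde2a, 0.50 for Pde2a with Pde10a and 0.49 for Pde4d with Pde10a. With all libraries these last pairs had r from 0.70 to 0.73. How often pairs of other genes pass the same limit was not computed, so the 7 pairs cannot be called particular to these genes.

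For the 4 genes with the most counts, the genes with the most similar pattern over 13 libraries were read off by r of log2 CPM with group means subtracted, as a description. For Pde3b they were Stag2 with r = 0.97, Qser1 with 0.96 and ENSMUSG00000118575, which had the values of Qser1. For Pde4a they were Ror2 with 0.89, Thap2 with 0.88 and Zfp141 with 0.86. For Pde4d they were Galnt2, Gm20388 and Rnf2, with 0.93, 0.93 and 0.92. For Pde2a they were its overlapping partner Gm45837 with 1.00, Ablim3 with 0.97 and Galnt15 with 0.96.

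The promoter table of RefSeq for GRCm38.p6 held 17 starts for 7 of the 10 genes, Pde4a, Pde4b, Pde4c, Pde4d, Pde2a, Pde8a and Pde10a. Pde2a had 5 starts, Pde4b 4, Pde4a 3 and Pde10a 2, and Pde4c, Pde4d and Pde8a had 1 each. Other starts, as of Pde4d with its many promoters, were not searched. The 250 bases before each start were searched on both strands for the cAMP response element TGACGTCA, its shorter core TGACG, which lies within it, and the forkhead sequence GTAAACA, as cAMP and FOXO1 are the arms of the study's model. The full element was in none of the 17, against 1.55% of all 32851 promoters. The core was in 3 of 17, against 17.8% of all, and the forkhead sequence in 1 of 17, against 3.17%. The 4 matches are shown in their surroundings to let the letters be seen beside genes whose transcripts did not pass the test, in lower case with the matched letters in capitals; CGTCA is the core read on the opposite strand.
Pde4a, chr9:21184031-21184075, plus strand: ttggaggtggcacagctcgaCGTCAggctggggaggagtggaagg
Pde4b, chr4:102421501-102421545, plus strand: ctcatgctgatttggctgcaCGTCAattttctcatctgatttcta
Pde8a, chr7:81213161-81213205, plus strand: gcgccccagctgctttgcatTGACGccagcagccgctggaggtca
Pde4c, chr8:70723912-70723958, plus strand: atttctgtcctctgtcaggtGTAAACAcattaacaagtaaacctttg
Such matches describe the letters of these windows and were not tested for binding.

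Of the 14 other PDE genes, 9 passed the filter and none was called, with 8 log2 fold changes above 0 and 1 below. Pde7b, a cAMP-specific relative of Pde7a, was the one below 0, at −0.28 with an interval from −0.71 to 0.15 (adjusted p = 0.814). It had 25.3 ± 5.58 CPM in iFAXLKO and 30.6 ± 10.1 CPM in WT, and per kb its level of 2.2 exceeded the 1.26 of Pde7a. The calmodulin-dependent Pde1a and Pde1b had 3.03 and 1.54 CPM per kb and log2 fold changes of 0.07 and 0.06, and Pde1c 0.0477 CPM per kb and 0.10. Of the cGMP-specific genes, Pde5a and Pde9a had 0.460 and 0.595 CPM per kb and log2 fold changes of 0.09 and 0.15. Pde6d, a prenyl-binding chaperone, and Pde6g, the inhibitory subunit of the rod enzyme, had 5.79 and 0.617 CPM per kb and log2 fold changes of 0.01 and 0.01. Pde8b had 0.224 CPM per kb and a log2 fold change of 0.07. The catalytic genes of the photoreceptors, Pde6a, Pde6b and Pde6c, were at 0 counts in every library, and Pde6h and Pde11a were under the filter.

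The genes around the PDEs in the pathway showed the same lack of calls. None of 8 adenylyl cyclases, 9 β-adrenergic receptor and G protein genes, 10 genes of protein kinase A and EPAC, 7 of cGMP synthesis and signalling, 9 PDE partners, 16 of the insulin to AKT axis and 12 cAMP-responsive genes passed the adjusted limit. The cyclase, receptor, partner, insulin to AKT and cAMP-responsive lists each held 1 gene at an unadjusted p under 0.05 in edgeR's test. Each of these was higher in iFAXLKO, and no gene of these lists was lower at that limit. Over all genes tested 513 were higher and 473 lower at that limit. The protein kinase A and cGMP lists held none, and over all genes tested the share was 7.38%. Adcy5, a cyclase, had 12.8 ± 3.78 CPM in iFAXLKO and 8.23 ± 2.22 CPM in WT, a log2 fold change of 0.63 (adjusted p = 0.490). Arrb1, an arrestin among the PDE partners, had a log2 fold change of 0.40 with an interval from 0.10 to 0.69 (adjusted p = 0.513). Pik3cg, a PI3K catalytic subunit, had 0.38 with an interval from 0.04 to 0.73 (adjusted p = 0.628). Per1, a clock gene with a cAMP response element, had 0.83 (adjusted p = 0.554). On the other side, Adcy3, the cyclase of highest level per kb, stood at −0.41 with an interval from −0.87 to 0.04 (adjusted p = 0.709). Ucp1, the uncoupling protein of brown fat, stood at −0.19 with an interval from −0.48 to 0.11 (adjusted p = 0.835). The smallest p among the protein kinase A and EPAC genes belonged to Prkar1a, a regulatory subunit, with −0.09 (adjusted p = 0.824), and among the cGMP genes to Gucy1b1, a subunit of soluble guanylyl cyclase, with 0.21 (adjusted p = 0.717). Medians of these lists lay between −0.09 and 0.16, against −0.01 over all genes tested.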

How the data were processed

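Bulk RNA-seq of iBAT in 8 iFAXLKO and 5 WT libraries was read as deposited raw counts, 1 whole number per Ensembl gene identifier and library. Per the labels' processing notes, which give no role or order, the authors used bcl2fastq 2.20, fastp 0.20.0, STAR 2.7.4a and DESeq2 with GRCm38.p6; the methods of the study name Trim Galore, hisat2, edgeR and DESeq2 instead, and depletion of ribosomal RNA where the labels give polyadenylated RNA. The counting tool and strand setting are not given in the sources used here, so overlapping genes can share or lose reads. Counts sum over all transcripts of a gene and do not separate splice forms.

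The 13360 of 42416 genes that exceeded 1 CPM in 5 or more libraries were tested with the robust quasi-likelihood F test of edgeR 4.0.16 in R 4.3.3, 2-sided, without covariates, and with Benjamini-Hochberg adjustment over all genes tested. CPM use library totals of 22.44 to 32.6 M times TMM factors of 0.897 to 1.06, and log2 CPM a prior count of 2. Exon lengths are unions of GENCODE M21 exons (GRCm38), positions are counted from 1. Single values were also tested by exact permutation of the group labels, and relations across libraries by 100000 permutations, or by all of them in subsets of 6 or 7 libraries. Scripts were tested on simulated data. DESeq2 1.42.0, limma 3.58.1 and other scalings, filters, covariates and left-out libraries served as alternatives; removal of the exon length trend, the exon length index, the fit of replicates 1 to 5 without a block and the pairs of genes were added after seeing the data. Replicates are labelled as separate samples only, so p-values measure the spread between these samples.

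The 10 genes, the gene lists and the rule for named genes (Axl, the 10 genes, other PDE genes past the filter, up to 3 genes per list by smallest p, and the 3 most similar genes for 4 genes with the highest counts) were chosen with earlier results of these data known. 1 gene of these lists is not reported here.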

Additional observations from a re-analysis of the deposited data

Results flagged for a closer look

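Of 22 sets of a gene and a group checked for a library far from its group, 1 was picked out, where chance picks about 1 in 20. Pde7a was at 12.4 CPM in WT replicate 1, while the other 4 WT libraries lay between 8.39 and 9.06 CPM, a gap of 0.833 of the whole range against a critical value of 0.71 for 5 samples. The 8 iFAXLKO libraries reached 12.2 CPM.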

How the results depend on the processing

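None of the 10 genes had an adjusted p under 0.05 in any of the 25 refits, 13 with a library left out and 12 with another setting; the lowest was 0.301. Over all genes 17 were called, against 67 by DESeq2, 7 with the replicate block and 14 to 19 with a library left out; the cause was not tested.

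Signs near 0 turned for 8 of the 10 genes, and held for Pde3b and Pde10a. Pde4a had 0.00063 by DESeq2, 0.00062 with RLE factors, 0.024 with upper quartile factors, 0.045 with library sizes without the most abundant genes and 0.0047 with the number range as a covariate. Pde4b had 0.0015 with upper quartile factors and 0.010 with those library sizes, and Pde8a 0.0055 with the latter. By limma-voom with sample weights the values were −0.022 for Pde4c, −0.16 for Pde4d, −0.041 for Pde2a, −0.019 for Pde1a, −0.020 for Pde1b, −0.14 for Pde5a and −0.082 for Pde6g. Pde6d had −0.00048 with filterByExpr and −0.0023 with the number range. With a library left out the log2 fold changes ran from −0.18 to 0.10 for Pde3a, −0.046 to 0.065 for Pde4a, −0.18 to 0.070 for Pde4b, −0.12 to 0.19 for Pde4d, −0.032 to 0.18 for Pde2a, −0.0070 to 0.16 for Pde7a, −0.014 to 0.22 for Pde1c, −0.060 to 0.24 for Pde5a, −0.041 to 0.15 for Pde6d, −0.095 to 0.17 for Pde6g and −0.058 to 0.23 for Pde8b. All 150 recomputed share differences moved by less than 1 SD. This limit was wide, as the difference was 1.14 for Pde4d and 0.353 for Pde4a, with iFAXLKO SDs of 4.62 and 3.07. Such differences could turn sign within it.

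Same-numbered libraries shared only a number: the correlations of their deviations were 0.39, 0.42, 0.19, 0.18 and −0.61, and 5 of 10 libraries correlated best with their own number. With the replicate block Pde4a had 0.0095, Pde4b 0.23, Pde4d −0.041, Pde1a −0.18, Pde1b −0.012 and Pde5a −0.054; the same libraries without the block gave 12 calls, and 0.0085, 0.19, −0.068, −0.19, −0.0074 and −0.11 in that order.

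Of the 10 genes Pde10a had the fewest counts, 46 to 169 per library.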
